A study of Mus musculus with 18 samples.

Results

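The 8 annexin genes *Anxa1*, *Anxa2*, *Anxa3*, *Anxa4*, *Anxa5*, *Anxa6*, *Anxa7* and *Anxa11* and the S100 genes *S100a10* and *S100a11*, whose proteins bind annexins, were followed across mouse liver. They were taken by gene symbol from the deposited table of EtOH-fed *Apoe* KO against EtOH-fed WT mice, and all 10 were found among its 15052 genes. The list was selected on the values measured in that comparison, so its differences are given as a description without a test. Every other comparison of EtOH-fed mice shares animals with it.

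Annexins bind phospholipid membranes when calcium rises, through a conserved core that is preceded by an amino-terminal tail that differs between members. S100 proteins are small calcium-binding dimers, and the dimers of the S100a10 and S100a11 proteins join the tails of the Anxa2 and Anxa1 proteins, which brings membranes together. The family is known for membrane repair, vesicle fusion, the recognition of dying cells and the resolution of inflammation, and in normal liver *Anxa1* and *Anxa2* are background genes of bile duct, stromal and immune cells more than of hepatocytes.

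Liver RNA of 18 mice was sequenced after poly(A) selection, and the comparison asks how a whole-body lack of *Apoe*, the gene of apolipoprotein E, changes the response of the liver to alcohol. WT mice were of the C57BL/6J strain and *Apoe* KO mice came from the same supplier; both were 10 to 12 weeks old and are labelled female, although the methods speak of female or male animals. All mice took a Lieber-DeCarli liquid diet for 5 days to get used to it. For the next 10 days the EtOH-fed animals (5 WT, 4 *Apoe* KO) received that diet with 5% (v/v) ethanol, whereas the pair-fed animals (4 WT, 5 *Apoe* KO) received a control diet of equal calories. On day 11 the EtOH-fed mice were gavaged with 5 g/kg ethanol and the pair-fed mice with 9 g/kg dextrin-maltose, and livers were taken 9 h later. No number 3 occurs among the 4 EtOH-fed knockouts, which are numbered 1, 2, 4 and 5. The knockout is present in every cell type, so it cannot assign a difference to macrophages or hepatocytes.

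Values are read counts that were scaled to a nearly common total of 32267493 to 32292618 per mouse and rounded. The steps between low values let the original depth be estimated in 16 of the 18 mice, at 5.60 to 52.2 M (mega) reads per mouse with a median of 21.6 M, and the EtOH-fed medians were 11.0 M for *Apoe* KO and 39.5 M for WT mice (3 of 5 resolved). *Apoe* stood between 611230 and 798431 in the WT mice and between 8586 and 108651 in the *Apoe* KO mice, so it followed the genotype labels in all 18. EtOH-fed *Apoe* KO mouse 1 went against its female label. It had an *Xist* value of 826 against 15227 to 30379 in the other 17 mice, and a value of 1077 for the Y-linked gene *Ddx3y* against 2 to 118, so the members' differences, the calls of the gene lists after ethanol in *Apoe* KO mice and the likeness of genes were also computed without it. The hepatocyte markers *Alb*, *Ttr* and *Apoa1* were abundant in every mouse, with no *Alb* value under 1547096.

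The sequences that join the partners are shown first. The tails of the Anxa1 and Anxa2 proteins that the S100 dimers hold are encoded at the start of the coding sequence, and the first 45 coding bases are printed from the transcripts Anxa1-201 and Anxa2-201 (GENCODE release M21 on GRCm38), with the start codon in capitals. The start codon of *Anxa1* begins at base 20384758 of chromosome 19 on the minus strand and that of *Anxa2* at base 69464477 of chromosome 9 on the plus strand.
Anxa1-201: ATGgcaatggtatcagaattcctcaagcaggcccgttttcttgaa
Anxa2-201: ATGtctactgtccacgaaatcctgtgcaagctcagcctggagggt

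Upstream sequence is shown for 4 members that passed the test after ethanol in *Apoe* KO mice, because they did not all move in the same direction. The windows come from RefSeq (GRCm38.p6), which matched 7 of the 10 members and not *Anxa3*, *Anxa6* and *S100a10*. Each window of 250 bases before the start site was searched, and the stretch outside the exons of the gene is printed 5′ to 3′ on the strand of the gene. None is printed for *Anxa1*, whose window begins inside an exon of the gene. Capitals mark AP-1 letters (TGANTCA) and SP1 letters (GGGCGG or, on the other strand, CCGCCC).
S100a11, chr3:93520246-93520487, plus strand: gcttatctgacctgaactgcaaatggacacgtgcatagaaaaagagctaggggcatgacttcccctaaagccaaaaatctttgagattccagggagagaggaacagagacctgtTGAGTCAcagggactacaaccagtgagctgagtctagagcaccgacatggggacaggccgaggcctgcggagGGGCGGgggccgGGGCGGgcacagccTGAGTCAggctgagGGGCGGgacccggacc
Anxa2, chr9:69453433-69453619, plus strand: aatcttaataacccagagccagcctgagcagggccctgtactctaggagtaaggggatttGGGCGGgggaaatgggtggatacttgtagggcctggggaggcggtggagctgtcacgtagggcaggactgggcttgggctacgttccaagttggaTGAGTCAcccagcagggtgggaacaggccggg
Anxa5, chr3:36475895-36476137, minus strand: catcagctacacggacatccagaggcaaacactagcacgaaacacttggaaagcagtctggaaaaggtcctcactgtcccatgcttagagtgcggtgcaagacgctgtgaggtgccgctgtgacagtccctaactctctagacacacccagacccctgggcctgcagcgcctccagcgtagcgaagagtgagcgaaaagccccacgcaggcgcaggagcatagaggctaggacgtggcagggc
Anxa11, chr14:25841905-25842154, plus strand: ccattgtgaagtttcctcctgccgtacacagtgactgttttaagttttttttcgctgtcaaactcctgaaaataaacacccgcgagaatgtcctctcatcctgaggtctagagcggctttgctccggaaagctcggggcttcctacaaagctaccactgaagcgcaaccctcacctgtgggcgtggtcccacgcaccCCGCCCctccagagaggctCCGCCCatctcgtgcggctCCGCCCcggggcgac
AP-1 letters lay once in the *Anxa2* window, 95 to 89 bases before the start site, and at 2 places in that of *S100a11*, 136 to 130 and 38 to 32 bases before it. They were in the windows of 2 of 7 members and in 6.75% of all 32851 windows of the same length. Members were counted by gene and the background by window, and *Anxa4* and *Anxa7* had 2 windows each, so the units differ. SP1 letters were in 4 of 7 members and in 32.7% of all windows, with 3 copies in *Anxa11*, whose value fell, and 3 in *S100a11*, whose value rose. In the *Anxa2* window they lay 190 to 185, 48 to 43 and 24 to 19 bases before the start site. Only the first of these is in the printed stretch. The *Anxa5* window held none of the letters searched. The other searches, on both strands with overlaps allowed, found TATAAA in *Anxa1* and *Anxa2* (12.4% of all windows), GGAATG, which TEAD factors read, in *Anxa1* (12.6%), and the antioxidant response letters TGACNNNGC (10.2%) and the NF-kappaB motif (3.9%) in *Anxa4*. The STAT letters TTCNNNGAA (7.02%) and the CArG box (1.47%) were in none of the 7. These are matches of letters and no evidence of binding.

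Ethanol in *Apoe* KO mice gave most of the changes. In EtOH-fed against pair-fed *Apoe* KO mice 6 members rose, namely *Anxa1*, *Anxa2*, *Anxa3*, *Anxa5*, *S100a10* and *S100a11*, by 0.72 to 1.45 on the log2 scale, and *Anxa11* fell by 0.63, while *Anxa4*, *Anxa6* and *Anxa7* did not pass the test. The test was limma on log2(value + 1) with Benjamini-Hochberg adjustment over all 15052 genes and a threshold of 0.05, and it called 16.3% of all genes higher and 6.92% lower in this comparison. In WT mice ethanol lowered *S100a11* only, where 6.52% of all genes were called lower and 6.19% higher. Both ethanol comparisons reused EtOH-fed mice from which the members were listed, so their calls and p-values are not independent of that choice. Between pair-fed *Apoe* KO and pair-fed WT mice no member passed limma's test, which called 0.870% of genes higher and 0.864% lower. There 4 members had an unadjusted p under 0.05, namely *Anxa2*, *Anxa11*, *S100a10* and *S100a11*. The share of all genes with an unadjusted p under 0.05 was not counted. Neither these 4 nor the unadjusted counts of the gene lists below can be set against the adjusted shares. Because bulk tissue was sequenced, more cells of a type and more RNA per cell cannot be told apart in any of these values.

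**Figure D1:**
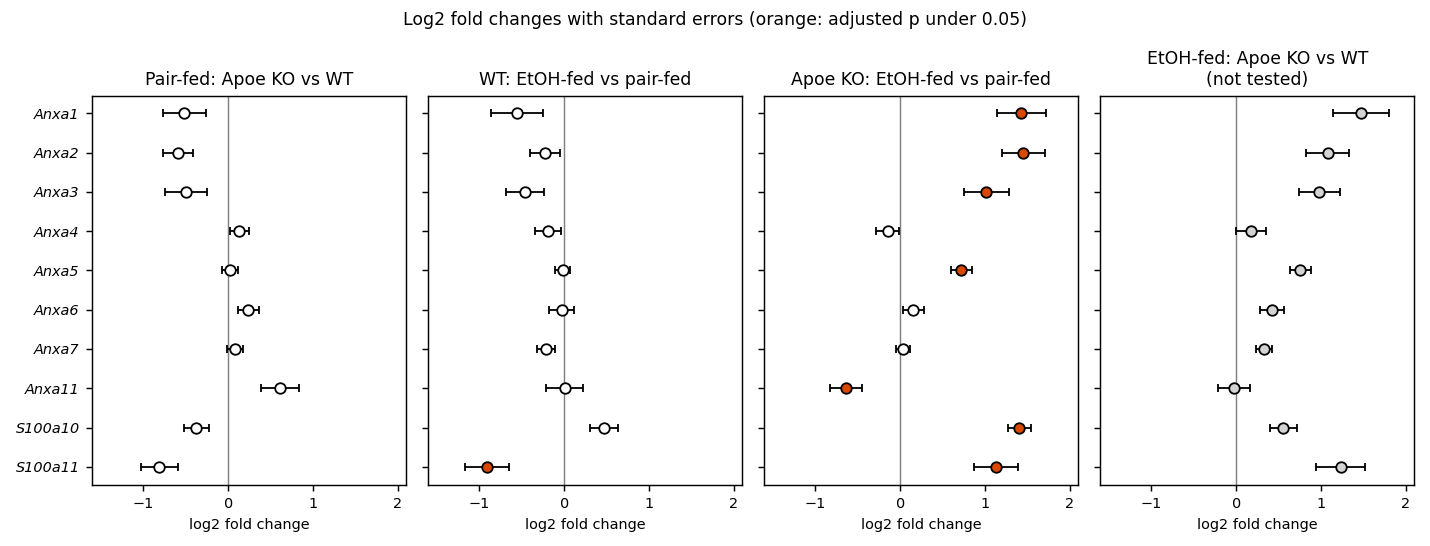
Log2 fold change (x axis, log2(value + 1) scale) of the 10 members in 4 comparisons, with bars for the standard error from limma. Orange points have a Benjamini-Hochberg adjusted p under 0.05 and grey points were not tested; 7 points are orange in the *Apoe* KO panel, 1 in the WT panel and 0 in the pair-fed panel.

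Across the 10 members the median log2 fold change after ethanol was 0.87 in *Apoe* KO mice, beside 0.13 over all genes, and -0.21 in WT mice, beside -0.01 over all genes. Between the pair-fed genotypes it was -0.18, beside 0.00 over all genes. The common total did not centre the *Apoe* KO comparison: with median-of-ratios size factors the median of all genes moved from 0.13 to 0.00 and the calls from 2446 higher and 1042 lower to 1656 higher and 1607 lower. Relative to the median of all genes, the differences in *Apoe* KO mice were 1.32 for *Anxa2*, 1.30 for *Anxa1*, 1.28 for *S100a10*, 1.005 for *S100a11*, 0.89 for *Anxa3* and 0.59 for *Anxa5*. *Anxa11* lay 0.76 below that median (-0.76), and all 7 calls were also made with the size factors.

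**Figure D2:**
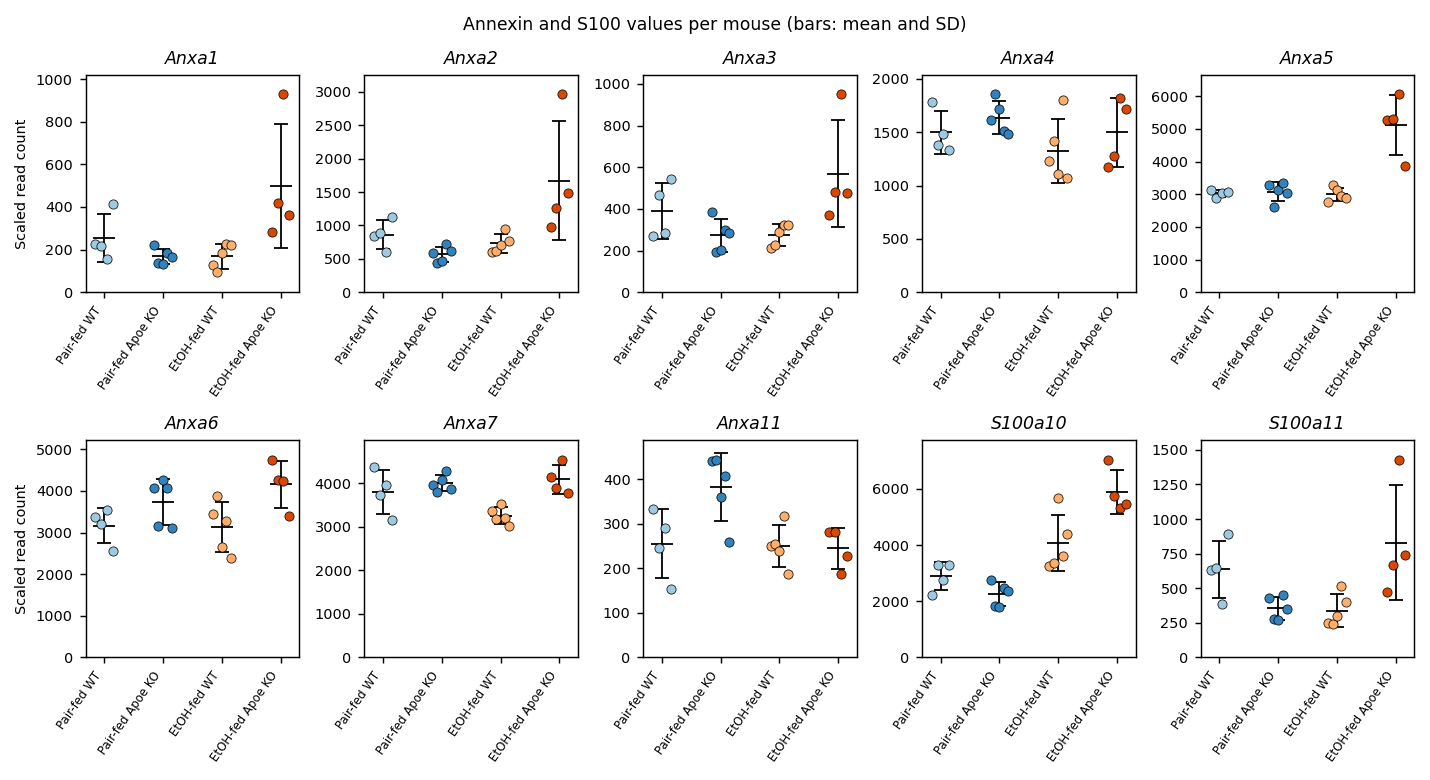
Scaled read count (y axis, linear from 0) of each member in every mouse, with the mean and SD of each group. The EtOH-fed *Apoe* KO mice of *Anxa5* sit between 3853 and 6059, above all other mice, whereas those of *Anxa11* sit between 188 and 282 and overlap the EtOH-fed WT mice.

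*Anxa2* and *S100a10* form the pair that holds membranes and the cytoskeleton together and that binds plasminogen and its activator at the cell surface. *Anxa2* (chromosome 9, 69453620 to 69491795, plus strand, GRCm38) stood at 847, 883, 601 and 1120 in pair-fed WT mice 1 to 4 and at 588, 438, 473, 725 and 615 in pair-fed *Apoe* KO mice 1 to 5. After ethanol it read 609, 623, 705, 946 and 770 in WT mice 1 to 5 and 981, 1263, 2964 and 1480 in *Apoe* KO mice 1, 2, 4 and 5. As deposited, the 4 EtOH-fed *Apoe* KO values were above every pair-fed *Apoe* KO and every EtOH-fed WT value, and mouse 4 stood far above the other 3. Ethanol raised *Anxa2* in *Apoe* KO mice by 1.45 ± 0.26 on the log2 scale (SE; limma, adjusted p = 0.00147). In WT mice the difference was -0.22 ± 0.18 (limma, adjusted p = 0.446) and between the pair-fed genotypes -0.59 ± 0.18 (limma, adjusted p = 0.103).

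*S100a10* (chromosome 3, 93555080 to 93564643, plus strand) stood at 2242, 3308, 2770 and 3305 in pair-fed WT mice and at 2768, 1832, 1791, 2484 and 2363 in pair-fed *Apoe* KO mice. With ethanol it reached 3270, 3378, 5671, 3629 and 4381 in WT mice and 7046, 5734, 5306 and 5483 in *Apoe* KO mice. All EtOH-fed *Apoe* KO values lay above the pair-fed *Apoe* KO values, but EtOH-fed WT mouse 3, at 5671, lay above 2 of the 4 EtOH-fed *Apoe* KO mice. Its rise after ethanol in *Apoe* KO mice, 1.40 ± 0.14, had the smallest adjusted p of the 10 members (limma, 2.57e-05). *S100a10* was the one member with a positive difference above 0.01 in WT mice, 0.47 ± 0.17, which missed the threshold (limma, adjusted p = 0.0834), and the pair-fed genotypes differed by -0.37 ± 0.15 (limma, adjusted p = 0.186).

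*Anxa1*, a glucocorticoid-induced gene whose protein acts on formyl peptide receptors and helps to end neutrophil influx, is the partner of *S100a11*. *Anxa1* (chromosome 19, 20373428 to 20390944, minus strand) stood at 225, 216, 157 and 415 in pair-fed WT mice and at 220, 139, 134, 184 and 165 in pair-fed *Apoe* KO mice. After ethanol it stood at 126, 93, 182, 224 and 223 in WT mice and at 284, 418, 929 and 361 in *Apoe* KO mice. All 4 EtOH-fed *Apoe* KO values were above all EtOH-fed WT and pair-fed *Apoe* KO values, although pair-fed WT mouse 4 reached 415. The gene rose by 1.43 ± 0.29 in *Apoe* KO mice after ethanol (limma, adjusted p = 0.00323). In WT mice the difference after ethanol was -0.56 ± 0.31 (limma, adjusted p = 0.257), with all 5 EtOH-fed mice below the pair-fed mean on the log2 scale, and between the pair-fed genotypes it was -0.52 ± 0.25 (limma, adjusted p = 0.271).

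*S100a11*, which lies beside *S100a10* on chromosome 3 (93520488 to 93526287, plus strand), was the one member called in both ethanol comparisons in opposite directions. It stood at 634, 645, 384 and 889 in pair-fed WT mice and at 428, 278, 274, 450 and 347 in pair-fed *Apoe* KO mice. After ethanol the values were 246, 240, 298, 514 and 398 in WT mice and 475, 671, 1429 and 742 in *Apoe* KO mice. Ethanol groups and pair-fed groups overlapped in WT mice but not in *Apoe* KO mice, where the lowest EtOH-fed mouse, at 475, lay just above the highest pair-fed mouse, at 450. *S100a11* fell by 0.91 ± 0.26 in WT mice (limma, adjusted p = 0.0340) and rose by 1.13 ± 0.26 in *Apoe* KO mice (limma, adjusted p = 0.00770). The fall in WT mice lost its call when any of pair-fed WT mice 1, 2 or 4 or EtOH-fed WT mice 1, 2 or 3 was left out, with an adjusted p of 0.0644 to 0.112 in limma. Between the pair-fed genotypes the difference was -0.81 ± 0.22, the lowest of the 10 members there (limma, adjusted p = 0.0728).

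*Anxa3*, an annexin abundant in myeloid cells, had a pattern like those of *Anxa1*, *Anxa2* and *S100a11*. *Anxa3* (chromosome 5, 96793339 to 96845966, plus strand) stood at 271, 466, 283 and 541 in pair-fed WT mice and at 387, 191, 201, 299 and 285 in pair-fed *Apoe* KO mice. After ethanol it read 213, 225, 291, 322 and 322 in WT mice and 372, 480, 950 and 477 in *Apoe* KO mice. EtOH-fed *Apoe* KO mice were above all EtOH-fed WT mice, but mouse 1, at 372, was below pair-fed *Apoe* KO mouse 1, at 387. The rise after ethanol in *Apoe* KO mice was 1.02 ± 0.26 (limma, adjusted p = 0.0141), beside -0.46 ± 0.22 in WT mice (limma, adjusted p = 0.196) and -0.50 ± 0.25 between the pair-fed genotypes (limma, adjusted p = 0.278).

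*Anxa5*, whose protein binds the phosphatidylserine that dying cells expose, differed little between the first 3 groups. *Anxa5* (chromosome 3, 36448923 to 36475894, minus strand) stood at 3123, 2873, 3051 and 3068 in pair-fed WT mice and at 3295, 2603, 3119, 3348 and 3044 in pair-fed *Apoe* KO mice. After ethanol it stood at 2767, 3275, 3116, 2941 and 2897 in WT mice and at 5275, 5306, 6059 and 3853 in *Apoe* KO mice. The 14 mice of the first 3 groups lay between 2603 and 3348, and the 4 EtOH-fed *Apoe* KO mice were all above them. Ethanol raised *Anxa5* in *Apoe* KO mice by 0.72 ± 0.12 (limma, adjusted p = 0.00128), while the difference in WT mice was -0.02 ± 0.09 (limma, adjusted p = 0.932) and that between the pair-fed genotypes 0.02 ± 0.09 (limma, adjusted p = 0.921).

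*Anxa11*, whose protein tethers RNA granules to lysosomes, was the one member that ethanol lowered in *Apoe* KO mice. *Anxa11* (chromosome 14, 25842156 to 25886804, plus strand) stood at 334, 246, 290 and 153 in pair-fed WT mice and at 440, 444, 360, 407 and 260 in pair-fed *Apoe* KO mice. After ethanol it stood at 250, 255, 240, 318 and 187 in WT mice and at 282, 282, 188 and 227 in *Apoe* KO mice. The EtOH-fed groups overlapped throughout, and 4 of the 5 pair-fed *Apoe* KO mice were above every other mouse. The fall in *Apoe* KO mice, of 0.63 ± 0.19, was called by limma (adjusted p = 0.0271) but not when any of pair-fed mice 1, 2 or 4 or EtOH-fed mice 4 or 5 was left out (limma, adjusted p = 0.0584 to 0.0752). The pair-fed genotypes differed by 0.61 ± 0.22 (limma, adjusted p = 0.152), and ethanol in WT mice gave 0.00 ± 0.22 (limma, adjusted p = 0.991).

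*Anxa4*, *Anxa6* and *Anxa7* passed the test in none of the 3 tested comparisons. *Anxa4* (chromosome 6, 86736840 to 86793584, minus strand), an annexin of secretory epithelia, ranged from 1338 to 1786 in pair-fed WT, 1486 to 1856 in pair-fed *Apoe* KO, 1075 to 1802 in EtOH-fed WT and 1174 to 1822 in EtOH-fed *Apoe* KO mice. *Anxa6* (chromosome 11, 54979108 to 55033445, minus strand), which acts in endosomes and cholesterol traffic, ranged from 2560 to 3533, 3103 to 4274, 2390 to 3874 and 3387 to 4753 in the same order of groups. *Anxa7* (chromosome 14, 20455260 to 20480133, minus strand), named for the fusion of secretory granules, ranged from 3162 to 4374, 3799 to 4274, 3011 to 3514 and 3780 to 4540. These ranges overlapped between the diets in both genotypes. After ethanol in *Apoe* KO mice the differences were -0.15 ± 0.13 for *Anxa4*, 0.16 ± 0.13 for *Anxa6* and 0.03 ± 0.08 for *Anxa7*, with adjusted p-values of 0.462, 0.399 and 0.824 in limma, and that of *Anxa7* was -0.09 with size factors. In WT mice they were -0.19 ± 0.15, -0.03 ± 0.15 and -0.22 ± 0.11 (limma, adjusted p = 0.445, 0.921 and 0.200). Between the pair-fed genotypes they were 0.13 ± 0.11, 0.24 ± 0.13 and 0.08 ± 0.10 (limma, adjusted p = 0.517, 0.320 and 0.686).

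Within the EtOH-fed mice, the comparison from whose table the members were taken, *Apoe* KO minus WT differences were 1.47 ± 0.34 for *Anxa1*, 1.23 ± 0.29 for *S100a11*, 1.08 ± 0.25 for *Anxa2* and 0.98 ± 0.24 for *Anxa3*. The others were 0.76 ± 0.12 for *Anxa5*, 0.56 ± 0.16 for *S100a10*, 0.42 ± 0.15 for *Anxa6*, 0.33 ± 0.09 for *Anxa7*, 0.18 ± 0.17 for *Anxa4* and -0.03 ± 0.19 for *Anxa11*. In the values as deposited the genotypes did not overlap for *Anxa1*, *Anxa2*, *Anxa3*, *Anxa5* and *Anxa7*, all higher in *Apoe* KO mice. Of all genes 7.12% were apart in that direction. Division by the size factors makes the genotypes overlap for *Anxa7* and *Anxa2*. *Anxa7* read 3780 in *Apoe* KO mouse 5 (size factor 1.11) and 3362 in WT mouse 1 (0.927). *Anxa2* read 981 in *Apoe* KO mouse 1 (1.036) and 946 in WT mouse 4 (0.987). The share of all genes was not recounted with size factors. The median of the members was 0.66 and that of all genes 0.11, which became 0.53 and -0.02 with size factors. The ethanol effect in *Apoe* KO minus that in WT mice was 2.04 ± 0.40 for *S100a11*, 1.99 ± 0.46 for *Anxa1*, 1.67 ± 0.34 for *Anxa2*, 1.48 ± 0.37 for *Anxa3*, 0.93 ± 0.23 for *S100a10*, 0.74 ± 0.15 for *Anxa5* and -0.64 ± 0.30 for *Anxa11*. The largest of these held both a negative difference in WT and a positive one in *Apoe* KO mice. For *Anxa4*, *Anxa6* and *Anxa7* it was 0.05 ± 0.21, 0.19 ± 0.20 and 0.25 ± 0.13. None of these values was tested, since the choice of members used the EtOH-fed groups. Without EtOH-fed *Apoe* KO mouse 1 the genotype differences of the EtOH-fed mice ran from -0.10 for *Anxa11* to 1.69 for *Anxa1* with a median of 0.60, and the differences of ethanol effects from -0.71 for *Anxa11* to 2.27 for *S100a11* with a median of 0.78.

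Left out of the EtOH-fed *Apoe* KO group, mouse 1, whose *Xist* value goes against its label, changed none of the 7 calls after ethanol. Without it the rises were 1.66 for *Anxa2*, 1.64 for *Anxa1*, 1.36 for *S100a11*, 1.31 for *S100a10*, 1.19 for *Anxa3* and 0.70 for *Anxa5*, and *Anxa11* fell by 0.71, with adjusted p-values of 0.000125 to 0.0282 in limma. Mouse 1 was the lowest of its group in 5 members and mouse 4 the highest in 7, among them *Anxa1*, *Anxa2*, *Anxa3* and *S100a11*. In *Anxa11* and *S100a10* mouse 4 was instead the lowest of the 4. Each of the 6 rises was called without any 1 mouse of either group, with the smallest estimates at 1.08 for *Anxa1*, 1.13 for *Anxa2*, 0.74 for *Anxa3*, 0.63 for *Anxa5*, 1.31 for *S100a10* and 0.83 for *S100a11*.

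**Figure D3:**
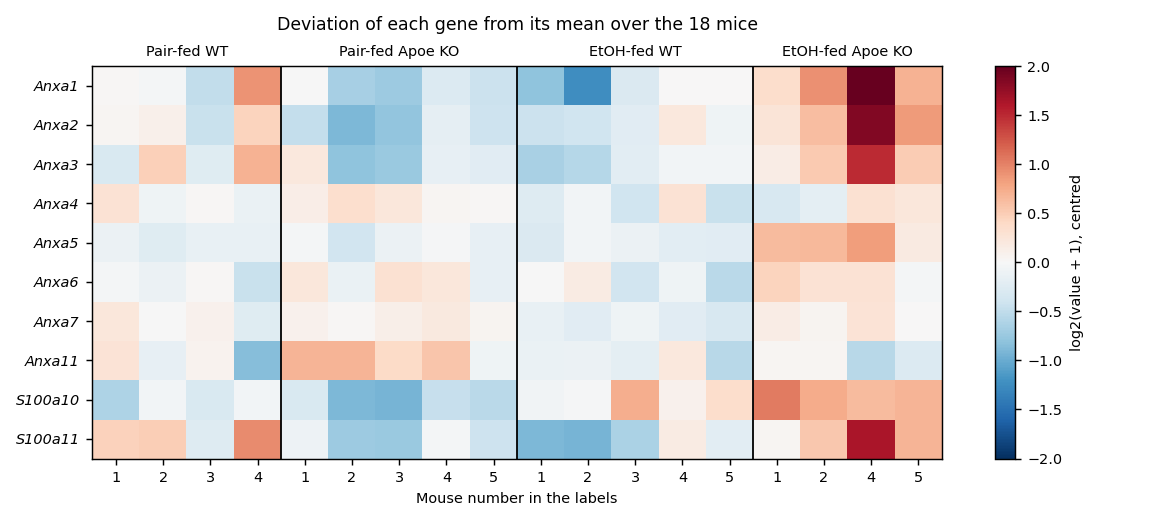
Each member (rows) in each mouse (columns, numbered as in the labels), coloured by log2(value + 1) minus the mean of that member over the 18 mice. EtOH-fed *Apoe* KO mouse 4 is the darkest red column for *Anxa1*, *Anxa2*, *Anxa3* and *S100a11*, with *Anxa1* at 929 and *S100a11* at 1429, while *Anxa11*, at 188, is blue there.

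Levels per kb of exon set *S100a10* first in all 4 groups, at 4862 ± 651 in EtOH-fed *Apoe* KO, 3355 ± 822 in EtOH-fed WT, 2398 ± 421 in pair-fed WT and 1854 ± 350 in pair-fed *Apoe* KO mice (mean ± SD, scaled counts per kb). *Anxa5* came next in each group, and the ranges of these 2 genes overlapped only in pair-fed *Apoe* KO mice. In pair-fed WT mice *S100a11*, *Anxa6*, *Anxa7*, *Anxa4*, *Anxa2*, *Anxa3*, *Anxa1* and *Anxa11* followed, and the neighbours *Anxa5* and *S100a11*, *S100a11* and *Anxa6*, *Anxa4* and *Anxa2*, *Anxa3* and *Anxa1*, and *Anxa1* and *Anxa11* overlapped. In EtOH-fed *Apoe* KO mice *Anxa2* stood above *Anxa4*, at 448 ± 237 against 322 ± 68.9, and *Anxa1* above *Anxa3*, at 171 ± 100.5 against 156 ± 70.9, but both pairs of neighbours overlapped. *Anxa11* was then last, at 59.2 ± 11.1, with its highest mouse below the lowest mouse of *Anxa3*.

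Per kb, *S100a10* exceeded *Anxa2* in every mouse. The ratio of *S100a10* to *Anxa2* was 8.15, 11.5, 14.2 and 9.08 in pair-fed WT mice and 14.5, 12.9, 11.7, 10.5 and 11.8 in pair-fed *Apoe* KO mice. After ethanol it was 16.5, 16.7, 24.8, 11.8 and 17.5 in WT mice and 22.1, 13.98, 5.51 and 11.4 in *Apoe* KO mice. The last group spanned nearly the whole range of the 18 mice, with mouse 1 near its top and mouse 4 at its bottom, and ran from 5.51 to 13.98 without mouse 1. The ratio of *S100a11* to *Anxa1* varied less, from 8.76 to 17.0, with pair-fed medians of 15.0 (WT) and 11.6 (*Apoe* KO) and EtOH-fed medians of 11.1 (WT) and 9.34 (*Apoe* KO). These ratios are descriptions and were not tested.

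**Figure D4:**
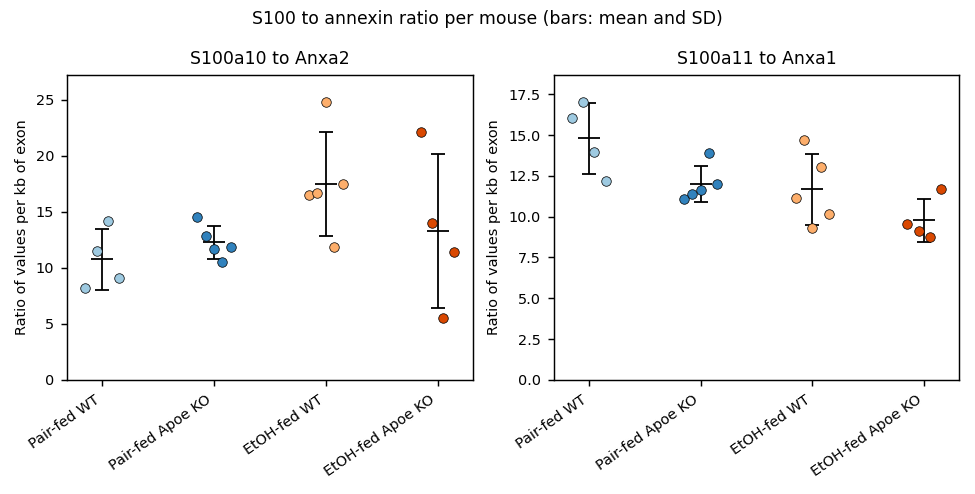
Ratio of values per kb of exon (y axis, linear from 0) of *S100a10* to *Anxa2* and of *S100a11* to *Anxa1* in every mouse, with the mean and SD of each group. For *S100a10* to *Anxa2* the 4 EtOH-fed *Apoe* KO mice run from 5.51 to 22.1, and for *S100a11* to *Anxa1* they run from 8.76 to 11.7.

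The members were also compared by how alike their patterns over the mice were. Among the 10, after centring on the mean over the 18 mice, the root mean square difference on the log2 scale was smallest for *Anxa6* and *Anxa7* (0.202), *Anxa4* and *Anxa7* (0.227), *Anxa2* and *Anxa3* (0.268) and *Anxa1* and *S100a11* (0.269), and largest for *Anxa1* and *Anxa11* (1.01). All pairs among *Anxa1*, *Anxa2*, *Anxa3* and *S100a11* lay close together, from 0.268 to 0.301, with *Anxa3* and *S100a11* at 0.270. Neither the partners *Anxa1* and *S100a11* nor *Anxa2* and *Anxa3* stand out among them. *Anxa2* and *S100a10*, whose proteins form a complex, were farther apart at 0.494. Members with small changes lie close to each other by this measure in any case: the 0.202 between *Anxa6* and *Anxa7* was larger than the variation of *Anxa7* itself (0.169), whereas *Anxa1* varied by 0.755. Among 12446 genes with a mean log2 value of at least 5, the nearest to *Anxa2* were *Ehd2* (0.204), a gene of caveolae, and *Cdc25b* (0.218), and the nearest to *Anxa1* were *Kirrel1* and *Vim*, the gene of vimentin (both 0.241). *S100a11* was nearest to *H2-Eb1* (0.178) and *H2-Aa* (0.198), genes of antigen presentation. *S100a10* was nearest to *Pdgfa* (0.232) and *Tubb4b* (0.242), *Anxa3* to *Fam111a* (0.178) and *Serpinb6b* (0.179), and *Anxa5* to *Ankrd27* (0.137) and *Lamc1* (0.154). *Anxa6* lay closest to the lysosomal genes *Psap* (0.125) and *Ctsb* (0.138), *Anxa7* to *Pik3r2* (0.0973) and *Npc2* (0.104), *Anxa4* to *Erlin2* (0.137) and *Rad21* (0.141), and *Anxa11* to *Scarb1* and *Rnf5* (both 0.193). The points share the same 18 libraries and their depth. Without EtOH-fed *Apoe* KO mouse 1, 15 of these 20 nearest genes were again among the 2 nearest, and the others were 2 for *Anxa4* and 1 each for *Anxa5*, *Anxa6* and *S100a10*.

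Markers of several non-parenchymal cell types moved in the same comparison as the members, and their part in the members' values was not tested. The sums given below add scaled counts, so the most abundant genes of a list weigh most. Over all genes limma called 16.3% higher and 6.92% lower after ethanol in *Apoe* KO mice, and 6.19% and 6.52% in WT mice. After ethanol in *Apoe* KO mice limma called 6 of 12 macrophage markers higher, and their summed value was 7711 to 12450 against 4102 to 7726 in pair-fed *Apoe* KO mice, 4821 to 7847 in pair-fed WT and 3098 to 5048 in EtOH-fed WT mice. In WT mice limma called 2 of the 12 lower after ethanol, *Csf1r* (-0.62, adjusted p = 0.0320) and *Lgals3* (-0.61, adjusted p = 0.0488). Of 10 stellate cell and fibroblast markers 7 were called higher, with sums of 20066 to 35845 against 11927 to 15826 in pair-fed *Apoe* KO mice and 12206 to 19233 in EtOH-fed WT mice, where limma called none after ethanol and 3 had an unadjusted p under 0.05. The highest of these sums was that of EtOH-fed *Apoe* KO mouse 4, which was also the highest for *Anxa1*, *Anxa2*, *Anxa3* and *S100a11* and for the macrophage sum. Endothelial markers were called higher after ethanol in both genotypes, 7 of 8 in each. Kupffer cell markers gave 2 of 5 higher in *Apoe* KO mice (sums of 10705 to 20653 against 7337 to 14697) and 2 of 5 lower in WT mice (4297 to 8212 against 7070 to 13025).

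Of the bile duct markers 1 of the 8 in the table was called higher after ethanol in *Apoe* KO mice, with sums of 3443 to 9570 against 4166 to 4826, and mouse 4 was again the highest. In WT mice limma called 2 of the 8 lower after ethanol, *Krt19* (-1.86, adjusted p = 0.0201) and *Spp1* (-0.82, adjusted p = 0.0326), with sums of 2417 to 4525 against 3709 to 6692. Most of these WT sums is *Spp1*, with means of 2122 after ethanol and 3751 on the control diet. None of the 4 neutrophil markers in the table was called by limma and 0 had an unadjusted p under 0.05 (sums of 167 to 431 against 140 to 326), and the defining markers *S100a8* and *S100a9* stayed low, at medians of 40.5 and 56.5. For lymphocytes 1 of 10 markers was called higher (sums of 291 to 607 against 184 to 343), and for hepatocytes 1 of 8 was higher and 1 lower (2228624 to 3135090 against 2791555 to 3699587). In WT mice limma called no neutrophil or lymphocyte marker after ethanol, with an unadjusted p under 0.05 for 1 of 4 and 5 of 10, and 2 hepatocyte markers rose and 1 fell. The share of all genes under that unadjusted threshold was not counted. Without EtOH-fed *Apoe* KO mouse 1, limma called 7 macrophage, 7 stellate cell and fibroblast, 2 bile duct and 2 lymphocyte markers higher, and the Kupffer cell, endothelial, hepatocyte and neutrophil counts were as before. No defining marker present in the table was at 0 in a whole group. The table leaves out genes with a mean under 11.8, so this check could hardly fail. It held only 4 of the 10 listed neutrophil markers, and the defining marker *Ly6g* was not among them.

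The other annexins and S100 genes were read in the same way. Of 4 other annexins listed, *Anxa8*, *Anxa9* and *Anxa13* were in the table and none was called by limma in any of the 3 tested comparisons. An unadjusted p under 0.05 was found for 2 between the pair-fed genotypes, 2 after ethanol in WT and 1 after ethanol in *Apoe* KO mice. The share of all genes under that unadjusted threshold was not counted. *Anxa8* gave 1.43 ± 0.50 after ethanol in *Apoe* KO mice, just short of the threshold (limma, adjusted p = 0.0512), and -1.50 ± 0.51 in WT mice (limma, adjusted p = 0.0720). Of 14 other S100 genes 6 were in the table, and 2 of them fell after ethanol in WT mice, *S100a6* by 2.05 ± 0.52 (limma, adjusted p = 0.0225) and *S100a13* by 0.69 ± 0.15 (limma, adjusted p = 0.0107). Of all genes 6.52% were called lower there. In *Apoe* KO mice limma called none of the 6, and 1 had an unadjusted p under 0.05. That was *S100a6*, which gave 1.17 ± 0.47 (limma, adjusted p = 0.0896), with group means of 1035 ± 914 after ethanol and 412 ± 233 on the control diet (SD, n = 4 and 5). Without EtOH-fed *Apoe* KO mouse 1, *Anxa8* (1.64; limma, adjusted p = 0.0484) and *S100a6* (1.48; limma, adjusted p = 0.0468) were called higher.

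Genes of the receptors, ligands and partners of annexins were called in both directions. Of the 10 in the table, 3 rose and 1 fell after ethanol in *Apoe* KO mice, where 16.3% of all genes were called higher and 6.92% lower. Without EtOH-fed *Apoe* KO mouse 1 the counts were 2 and 1, so with so few genes they are not far from the share of all genes. *Plat*, the gene of tissue plasminogen activator, which the Anxa2 and S100a10 complex binds, rose by 1.68 ± 0.36 (limma, adjusted p = 0.00475). *Fpr1*, a formyl peptide receptor of the Anxa1 protein, rose by 1.52 ± 0.51 (limma, adjusted p = 0.0448; 0.104 without EtOH-fed *Apoe* KO mouse 1), and *Ahnak*, a scaffold held by the Anxa2 and S100a10 complex, by 1.20 ± 0.22 (limma, adjusted p = 0.00195). In WT mice after ethanol these gave -0.44 ± 0.38, -0.70 ± 0.36 and -0.54 ± 0.23, and none passed the test (limma, adjusted p = 0.486, 0.220 and 0.139). *Fpr2*, another formyl peptide receptor gene of the list, was not called after ethanol in *Apoe* KO mice. It gave 0.52 ± 0.56 there (limma, adjusted p = 0.544; 0.802 without EtOH-fed *Apoe* KO mouse 1). *Plg*, the gene of plasminogen, fell by 0.44 ± 0.14 in *Apoe* KO mice (limma, adjusted p = 0.0358). Between the pair-fed genotypes *Plg* was higher in *Apoe* KO mice by 0.92 ± 0.21 and *Ahnak* lower by 0.74 (-0.74 ± 0.17; limma, adjusted p = 0.0401 and 0.0495).

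The listed membrane repair genes and calcium-dependent partners rose more often than they fell in *Apoe* KO mice. This list, like the other gene lists, was drawn up with earlier results of these data known. The EtOH-fed *Apoe* KO mice had also been used to list the members. The counts and the median of the list are therefore a description and no independent support. Of the 18 in the table limma called 9 higher and 1 lower after ethanol, namely *Tsg101*, a subunit of the ESCRT machinery, which fell by 0.30 ± 0.09 (adjusted p = 0.0320). Over all genes limma called 16.3% higher and 6.92% lower in *Apoe* KO mice, and 6.19% and 6.52% in WT mice. Without EtOH-fed *Apoe* KO mouse 1 it called 8 higher, all among the 9, and none lower: *Capns1*, a calpain subunit gene, and *Tsg101* were not called (limma, adjusted p = 0.0803 and 0.0602). The rises were led by *Myof*, the gene of the ferlin myoferlin, at 1.52 ± 0.29 (limma, adjusted p = 0.00257), followed by *Cavin1*, a coat gene of caveolae, at 1.35 ± 0.26 (limma, adjusted p = 0.00255) and *Ehd2* at 1.03 ± 0.24 (limma, adjusted p = 0.00839). In WT mice 1 gene rose and 1 fell: *Ehd1*, which acts in endosome recycling, rose by 0.44 ± 0.11 (limma, adjusted p = 0.0182), and *Myof* fell by 1.09 ± 0.30 (limma, adjusted p = 0.0317). *Myof* stood at 612 ± 326 in EtOH-fed and 199 ± 50.6 in pair-fed *Apoe* KO mice, and at 185 ± 81.3 in EtOH-fed and 378 ± 118 in pair-fed WT mice (SD, n = 4, 5, 5 and 4). The median of the 18 genes was 0.40 in *Apoe* KO and -0.06 in WT mice, beside 0.13 and -0.01 over all genes.

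**Figure D5:**
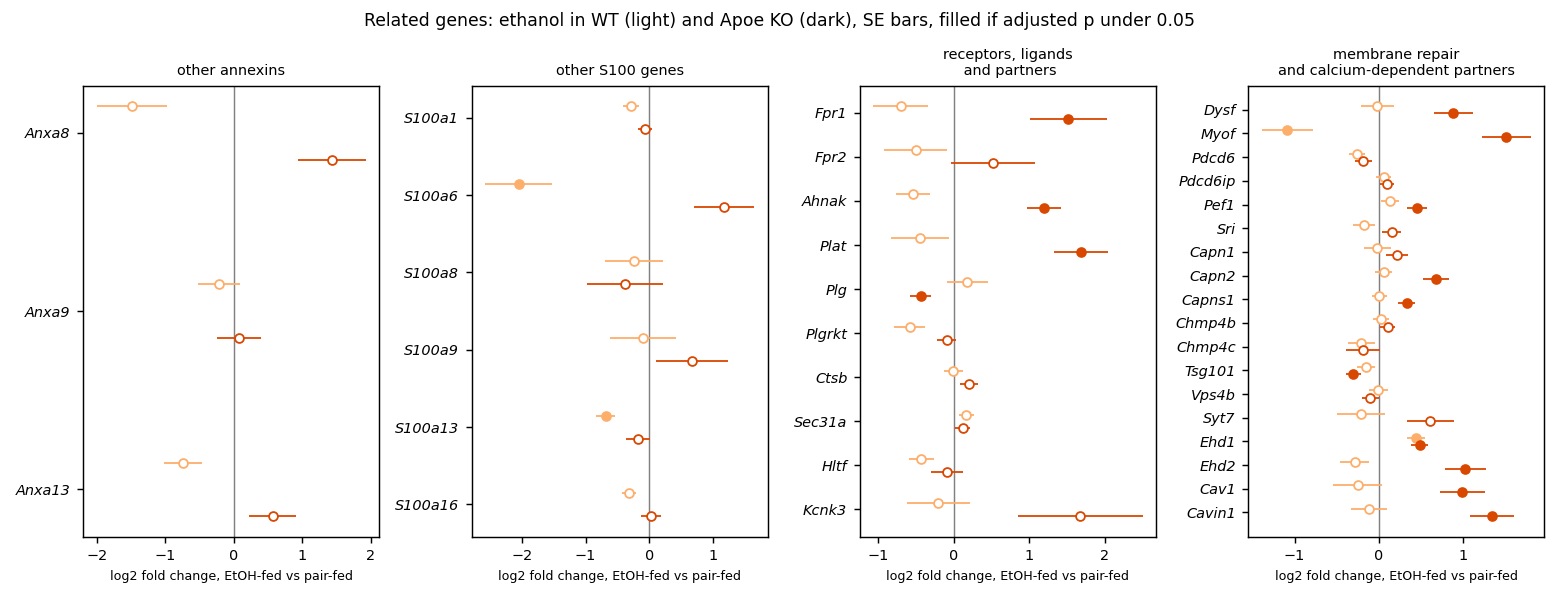
Log2 fold change of EtOH-fed against pair-fed mice (x axis) for the related genes in the table, in WT (light) and *Apoe* KO mice (dark), with standard errors from limma and filled points where the adjusted p is under 0.05. *Myof* is filled on both sides of 0, negative in WT mice (-1.09) and positive in *Apoe* KO mice (1.52).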

How the data were processed

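Liver RNA was extracted with TRIzol and poly(A)-selected. According to the methods and the submitters' processing notes, the authors used Trimmomatic for trimming, HISAT2 for alignment to GRCm38, featureCounts for counting and DESeq2 for their own comparisons; versions and the annotation are not given in the sources used here. The authors deposited 1 table whose values per mouse are a signal, that is, gene read counts brought to almost the same sum in each mouse and given as whole numbers. How they were scaled is not stated. Its smallest mean is 11.8, so genes with lower means are not in it. The columns with the authors' mean, log2 fold changes, ratios of these to their errors and p-values, as deposited, were not used. Of 15247 lines, 195 repeated a gene with identical values, which left 15052 genes.

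Because the values are scaled, limma 3.58.1 (R 4.3.3; intensity trend) was fitted to log2(value + 1) with the mice of the compared groups, or all 18 for the difference of ethanol effects, and Benjamini-Hochberg adjustment over all genes (threshold 0.05). A fold change on this scale understates that of low genes, and the number of reads behind a value is known only as an estimate. The fit was tested on simulated data. Groups came from the labels, and 1 mouse was 1 replicate. Members and gene lists were chosen with earlier results of these data known. All members were named, and related genes when limma called them in an ethanol comparison with a log2 fold change of at least 1 in size. *S100a13*, *Plg*, *Fpr2*, *Tsg101*, *Ehd1* and the other annexins were added after their values were seen, so that small counts are spelled out. Of the receptors, ligands and partners, 2 genes are not reported here and were left out of the list. Likeness took the 2 nearest genes. Alternatives were size factors, a pseudocount of 0.1, a floor of 10 for each mouse, 1 fit of all 4 groups, sample quality weights, a replicate block and leaving out each mouse; lists and likeness without EtOH-fed *Apoe* KO mouse 1 were added after seeing the data. Python 3.11.15 with pandas 2.3.3 and matplotlib 3.10.9 made the summaries.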

Additional observations from a re-analysis of the deposited data

Results flagged for a closer look

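In 5 members every EtOH-fed mouse of 1 genotype, or every *Apoe* KO mouse of 1 diet, lay on 1 side of its control mean and every such mouse of the other on the opposite side. This difference was not tested, and the share of all genes that meet the same rule was not counted, so the 5 cannot be read as particular to the members. For *Anxa1*, *Anxa3* and *S100a11* all 5 EtOH-fed WT mice were below the pair-fed WT mean and all 4 EtOH-fed *Apoe* KO mice above the pair-fed *Apoe* KO mean, and the ethanol effects differed by 1.99, 1.48 and 2.04 on the log2 scale. For *Anxa1*, *Anxa2*, *S100a10* and *S100a11* all 5 pair-fed *Apoe* KO mice were below the pair-fed WT mean and all 4 EtOH-fed *Apoe* KO mice above the EtOH-fed WT mean, with the same difference of 1.99 for *Anxa1*, 1.67 for *Anxa2*, 0.93 for *S100a10* and 2.04 for *S100a11*. The EtOH-fed groups had been used to list the members. In no member or ratio of partners, over 48 sets of values, was 1 mouse far enough from its group to be set apart by Dixon's criterion, which chance alone would do in about 1 of 20 sets.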

How the results depend on the processing

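The 6 rises after ethanol in *Apoe* KO mice were called under all 14 alternatives of that comparison, and no member was called higher in WT or between the pair-fed genotypes under any. All these alternatives for *Apoe* KO mice reused EtOH-fed mice from which the members were listed. They show how the calls depend on the settings and are no independent support. Leaving out each mouse in turn gave 0 to 2 members called lower between the pair-fed genotypes, 0 to 1 in WT mice and 0 to 1 in *Apoe* KO mice; the 2 were *Anxa2* and *S100a11* without pair-fed WT mouse 3 (limma, adjusted p = 0.0318 and 0.0161). The median of the members kept its sign in each comparison, at 0.69 to 0.96 in *Apoe* KO, -0.26 to -0.13 in WT and -0.23 to -0.11 between pair-fed mice.

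The labels give mice with the same number in different groups no link beyond that number. The correlation of their deviations from the group means was -0.0508 to 0.0706 between the pair-fed groups, -0.217 to 0.1004 in WT, -0.0638 to 0.159 in *Apoe* KO and -0.0242 to 0.230 between the EtOH-fed groups. It was over 0.1 in 3 of 4 pairs between the EtOH-fed groups (mean 0.135). That held for 0 of 4 pairs between the pair-fed groups (mean 0.015) and 1 of 4 in each ethanol comparison. Whether same-numbered mice shared anything more was not tested. With the replicate number as a block, 2 members were called lower between the pair-fed genotypes, *Anxa2* (-0.63; limma, adjusted p = 0.0436) and *S100a11* (-0.81; limma, adjusted p = 0.0268), and no other call changed. A block can use only numbers present in every group, so it left out 1 of 9 mice in each comparison of 2 groups and 6 of 18 for the difference of ethanol effects. *Anxa6* in WT mice was 0.062 in the block fit, as it was without EtOH-fed WT mouse 5, the mouse that the block left out. The untested difference of ethanol effects in the 12 mice of the block fit was -0.22 for *Anxa4* and -1.03 for *Anxa11*.

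Uncalled values near 0 changed sign. *Anxa7* in *Apoe* KO mice became -0.094 with size factors, and its untested EtOH-fed genotype difference and difference of ethanol effects became 0.20 and 0.11. Without single mice *Anxa5* ran from -0.011 to 0.080 and *Anxa7* from -0.0078 to 0.15 between the pair-fed genotypes. In WT mice *Anxa5* ran from -0.048 to 0.012, *Anxa6* from -0.13 to 0.062 and *Anxa11* from -0.22 to 0.15, and in *Apoe* KO mice *Anxa7* ran from -0.020 to 0.068. The cause was not tested.

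Depth limits the low genes: *Anxa1*, *Anxa3*, *Anxa11* and *S100a11* have the lowest scaled counts of the 10 members, and EtOH-fed *Apoe* KO mice were the shallowest group by median. Diet and genotype effects rest on 4 or 5 mice a group, and 1 mouse goes against its label.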
